A study of Danio rerio with 16 samples.

Results

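Mitochondrially encoded respiratory chain genes are described here by the levels of 10 transcripts in cells sorted from the zebrafish heart. The 10 gene IDs, of 31388 in all, were given by a fixed list of Ensembl IDs and not by their values: mt-nd1 (ENSDARG00000063895), mt-nd2 (ENSDARG00000063899), mt-nd3 (ENSDARG00000063914), mt-nd4 (ENSDARG00000063917) and mt-nd5 (ENSDARG00000063921) of complex I, mt-cyb (ENSDARG00000063924) of complex III, mt-co1 (ENSDARG00000063905), mt-co2 (ENSDARG00000063908) and mt-co3 (ENSDARG00000063912) of complex IV, and mt-atp6 (ENSDARG00000063911) of the ATP synthase. The name table gave each ID this symbol. All 10 were detected in all 16 libraries and passed the filter on low values. The table held 13 named subunits of this kind. The other 3, mt-atp8, mt-nd4l and mt-nd6, are not in the list of 10 and are given beside it.

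The respiratory chain is a row of protein complexes in the inner mitochondrial membrane that pass electrons from nutrients to oxygen and pump protons, and the ATP synthase uses the proton gradient to make ATP. Most of its subunits are encoded in the nucleus, but a few core subunits are encoded by the small circular genome inside the mitochondrion itself. This genome is read as long precursor RNAs that are cut into shorter messengers. Complex II has no subunit of this genome. Heart muscle is rich in mitochondria, whereas endothelial cells are known to rely more on glycolysis.

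The fish were adults of 3 to 9 months that carried both kdrl:mCherry, a reporter driven by an endothelial receptor gene, and postnb:citrine, a reporter driven by a periostin gene that activated fibroblasts switch on. All groups, uninjured ones included, had both transgenes. The apex of the ventricle was taken from 3 to 5 pooled hearts per sample, digested with trypsin and sorted by fluorescence, and 0.2 to 0.6 ng of RNA was amplified before sequencing. The groups were mCherry-positive cells of uninjured hearts (3 libraries, pools 2, 3 and 4), and, at 7 days after cryoinjury (7 dpi), mCherry-positive cells (4 libraries, pools 5, 6, 7 and 9), citrine-positive cells (3 libraries, pools 7, 9 and 10) and cells with neither reporter, called double-negative (6 libraries, pools 5 to 10). The double-negative sort is a mixture of all cells without signal of either reporter and not a cell type.

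Values were TPM, the share of a transcript per unit of length scaled to 1000000 per library, so levels can be compared between genes. Depth is unknown and no counting interval is given. A lower TPM in a sort cannot tell fewer cells of a type apart from less RNA per cell. The endothelial receptor gene kdrl had 387 ± 94.4 TPM (SD, n = 3) in uninjured and 214 ± 51.0 TPM (n = 4) in 7 dpi mCherry-positive libraries. The periostin ID ENSDARG00000104267 had 1059 ± 423 TPM (n = 3) in citrine-positive and 302 ± 98.5 TPM (n = 6) in double-negative libraries. The other periostin ID, ENSDARG00000043806, did not set the citrine-positive sort apart. It had 206 ± 172 TPM there, 157 ± 168 TPM in 7 dpi and 136 ± 33.1 TPM in uninjured mCherry-positive, and 106 ± 85.7 TPM in double-negative libraries. The endothelial markers summed to between 884.47 and 1589 TPM in 7 dpi mCherry-positive and to between 14.6 and 22.7 TPM in citrine-positive libraries. In double-negative libraries they summed to between 129.93 and 429.43 TPM, so endothelial markers were not absent from that sort. Fibroblast markers summed to between 2944 and 8783 TPM in citrine-positive and to between 604.02 and 2069 TPM in 7 dpi mCherry-positive libraries. Each sort thus had the higher sum of its own markers. In 7 dpi mCherry-positive libraries the fibroblast markers were uneven. There col1a1a had from 229.05 to 757.07 TPM and the periostin ID ENSDARG00000043806 from 55.26 to 407.02 TPM. COL1A2, COL5A1, PDGFRA and DCN were also detected in each of these libraries. TCF21, LUM and mfap5 reached no more than 0.53, 0.58 and 2.89 TPM, against at least 36.93, 45.65 and 79.98 TPM in citrine-positive libraries. A pair of other IDs (si:dkeyp-3b12.8 and its neighbour in name si:dkeyp-3b12.11) took up 25.7% to 35.8% of the TPM of each library from pool 9 or 10, but no more than 2.09% elsewhere, which lowers every other TPM value in the former. Uninjured and injured hearts came from different pools, so pool and injury cannot be told apart.

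The 10 transcripts were among the abundant messengers of every sort, but their summed level was small. It ranged from 4098 TPM, or 0.41% of the total, in mCherry-positive pool 7 at 7 dpi to 16599 TPM, or 1.66%, in double-negative pool 6. By the median rank over the 16 libraries, mt-co1 stood at place 36 of all IDs, mt-co2 at 52, mt-atp6 at 55, mt-co3 at 72, mt-cyb at 79, mt-nd4 at 128, mt-nd2 at 137, mt-nd5 at 155 and mt-nd1 at 165. The tenth transcript, mt-nd3, stood at place 910. Among the 10, the 3 subunits of complex IV, which hands the electrons to oxygen, and mt-atp6 thus took the first 4 places. Those of complex I, where electrons enter from NADH, took the last 5. This grouping by complex did not extend beyond the list. Outside it, mt-nd6 of complex I stood at place 57, mt-atp8 of the ATP synthase at 126 and mt-nd4l of complex I at 142. In the 6 double-negative libraries the ranges of neighbours in the order of the 10 overlapped, except that mt-cyb (lowest 1166 TPM) stood clear of mt-nd4 (highest 1028 TPM) and mt-nd1 (lowest 512.22 TPM) of mt-nd3 (highest 189.73 TPM). The 4 genes from mt-nd4 to mt-nd1 were close to each other, at 742 ± 161, 730 ± 181, 567 ± 146 and 751 ± 233 TPM (SD, n = 6) for mt-nd4, mt-nd2, mt-nd5 and mt-nd1.

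**Figure D1:**
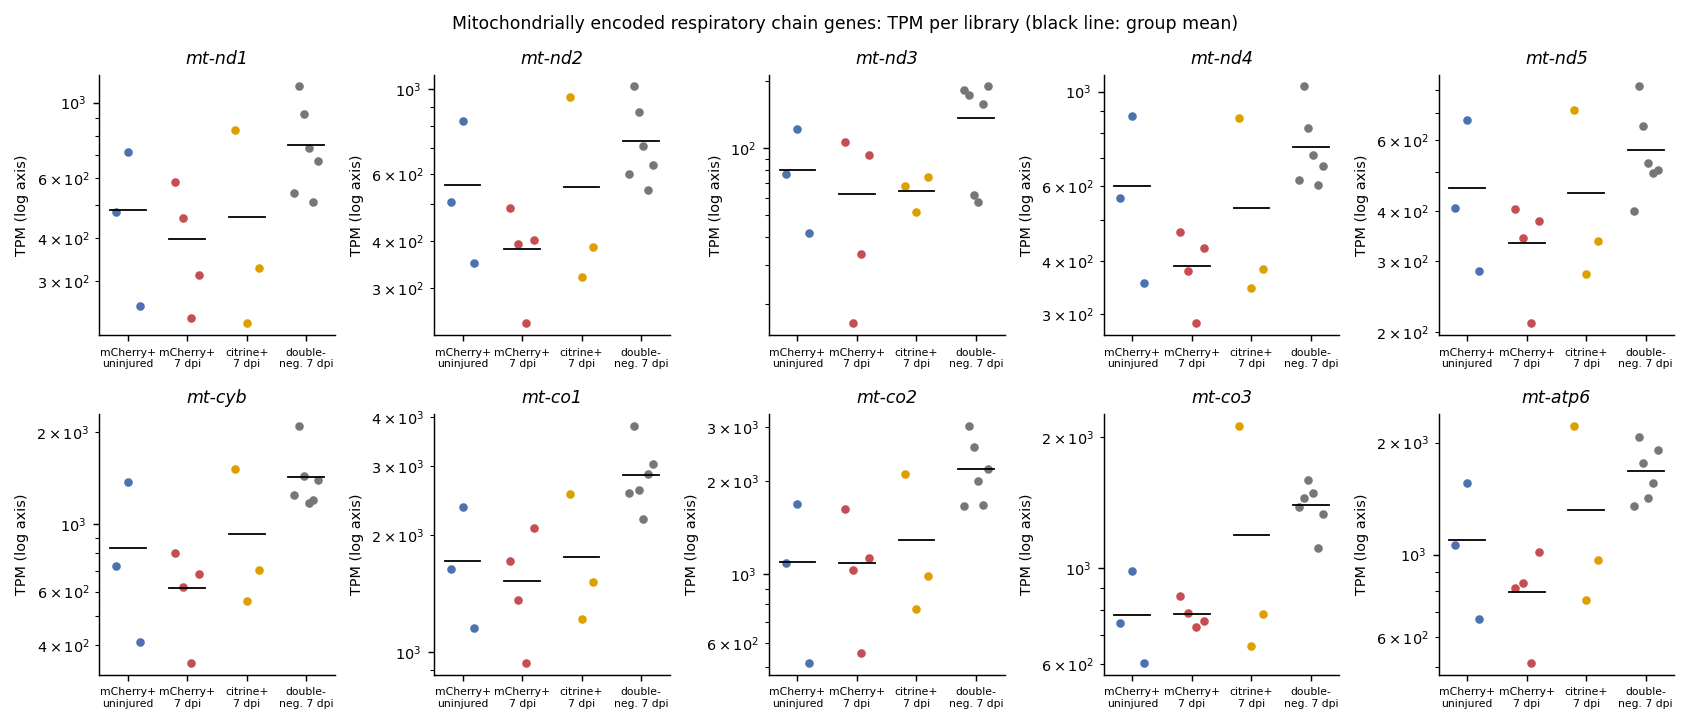
TPM of each of the 10 mitochondrially encoded genes (log axis) in each library by group, where a point is a library and the black line is the group mean. Double-negative libraries have the highest group mean for all 10 genes, and 1 of the 3 citrine-positive libraries, pool 7, lies far above the other 2 for every gene but mt-nd3.

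The double-negative group had the highest mean of the 4 groups for 10 of 10 genes, and mCherry-positive cells at 7 dpi the lowest for 9 of 10, the exception being mt-co3, which was lowest in uninjured mCherry-positive cells. The summed level was 12453 ± 2308 TPM (SD, n = 6) in double-negative, 8535 ± 4730 TPM (n = 3) in citrine-positive, 7702 ± 3284 TPM (n = 3) in uninjured mCherry-positive and 6370 ± 1658 TPM (n = 4) in 7 dpi mCherry-positive libraries. The ranges of the last 3 groups overlap. As deposited, the double-negative range, from 10530 to 16599 TPM, stood clear only of the 7 dpi mCherry-positive one (highest 7863 TPM). Citrine-positive libraries reached up to 13948 TPM and uninjured ones up to 11170 TPM, both within the double-negative range. This depended on the scaling. With median-of-ratios scaling, described below, the double-negative sums, from 10116 to 14166, also stood clear of the uninjured ones, from 4611 to 7774. The citrine-positive ones, from 6122 to 19678, still overlapped them.

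The clearest difference was between mCherry-positive and double-negative cells of injured hearts. Cytochrome b, mt-cyb, is the electron-carrying core of complex III and its only mitochondrially encoded subunit. It had 801.50, 620.62, 350.69 and 685.80 TPM in mCherry-positive pools 5, 6, 7 and 9, against 1166, 1313 and 2098 TPM as the lowest, median and highest of the 6 double-negative libraries. The groups did not overlap, and every mCherry-positive library was below every double-negative one. The log2 fold change was -1.24 ± 0.39 (SE), with an adjusted p of 0.0478 (limma, Benjamini-Hochberg over 19039 IDs). It was the only 1 of the 10 that was called at an adjusted p under 0.05, where 10.9% of all tested IDs were called and 6.88% were called lower. The call was lost whichever library was left out: leaving out each of the 10 libraries in turn lifted the adjusted p of mt-cyb to between 0.0513 and 0.158, with fold changes from -1.39 to -0.99.

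The other 9 genes lay in the same direction without passing the threshold, with adjusted p from 0.0616 to 0.185 (limma). Each had an unadjusted p under 0.05, beside 4489 of all 19039 tested IDs. The transcripts of the 9 come from the same genome, so they are not 9 separate observations. For all 10 the median log2 fold change was -0.95, against -0.10 over all tested IDs. In 7 of 10 the groups did not overlap, whereas this held for 10.2% of all IDs, and for 6.45% with mCherry-positive cells lower. The count depended on the scaling. It was 6 of 10, without mt-co1, when the pair of IDs abundant in pools 9 and 10 was left out of the total. With median-of-ratios scaling, described below, it was 9 of 10. The shares of all IDs under these 2 scalings were not counted.

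Cytochrome c oxidase, complex IV, had 3 genes in the list, and all 3 belonged to the 7 without overlap in TPM as deposited. Its catalytic subunit mt-co1 had 1718, 1363, 941.16 and 2087 TPM in mCherry-positive pools 5, 6, 7 and 9, and 2203, 2738 and 3808 TPM as the lowest, median and highest of the double-negative libraries, a log2 fold change of -0.94 ± 0.37 (adjusted p 0.119, limma). The copper-binding subunit mt-co2 had 1622, 1034, 556.22 and 1132 TPM against 1662, 2095 and 3024 TPM, a change of -1.08 ± 0.42 (adjusted p 0.113, limma). In both the highest mCherry-positive library came close to the lowest double-negative one. The structural subunit mt-co3 was the most even of the 10 within the mCherry-positive group, at 858.88, 785.77, 730.81 and 751.94 TPM, against 1114, 1418 and 1597 TPM, a change of -0.83 ± 0.34 (adjusted p 0.137, limma).

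The ATP synthase subunit mt-atp6, part of the channel through which protons return, had 812.51, 838.48, 512.74 and 1015 TPM in mCherry-positive pools 5, 6, 7 and 9, against 1349, 1660 and 2064 TPM in double-negative libraries. The groups stood clear of each other, with a log2 fold change of -1.10 ± 0.37 (adjusted p 0.0616, limma). Without mCherry-positive pool 9 this gene was called (adjusted p 0.0468) and mt-cyb was not.

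Of the proton-pumping subunits of complex I, mt-nd2 and mt-nd4 did not overlap between the groups. The level of mt-nd2 was 488.21, 391.81, 242.96 and 403.22 TPM in the 4 mCherry-positive libraries and 544.36, 672.58 and 1017 TPM as the lowest, median and highest double-negative values (log2 fold change -0.94 ± 0.36, adjusted p 0.108, limma). For mt-nd4 these were 467.02, 378.68, 285.83 and 428.70 TPM against 602.96, 689.14 and 1028 TPM (-0.92 ± 0.34, adjusted p 0.0918, limma). The ranges of the remaining 3 complex I genes, mt-nd1, mt-nd3 and mt-nd5, overlapped between the groups. The level of mt-nd1, which lies at the site where complex I hands electrons to quinone, was 583.85, 459.26, 233.93 and 312.62 TPM against 512.22, 705.26 and 1116 TPM (-0.95 ± 0.41, adjusted p 0.160, limma), and that of mt-nd5, also a proton-pumping subunit, was 403.92, 343.38, 210.09 and 378.04 TPM against 400.62, 517.07 and 816.82 TPM (-0.77 ± 0.35, adjusted p 0.185, limma). In both genes only mCherry-positive pool 5 reached into the double-negative range.

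Of the named subunits outside the list of 10, mt-atp8, the small partner of mt-atp6, passed the threshold with a log2 fold change of -1.29 ± 0.39 (adjusted p 0.0377, limma), a call kept in 4 of the 10 fits that left out 1 library (adjusted p from 0.0225 to 0.132). For mt-nd4l the change was -0.96 ± 0.35 (adjusted p 0.0900) and for mt-nd6 -0.85 ± 0.34 (adjusted p 0.130), neither past it. The reading frames of mt-atp8 and mt-atp6 share 7 bases, and so do those of mt-nd4l and mt-nd4. Reads could thus be shared within a pair, and the levels of a pair are not independent measures. The frame of mt-atp8 is 165 bases long and reads were 60 bases, whose part in its level was not tested.

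**Figure D2:**
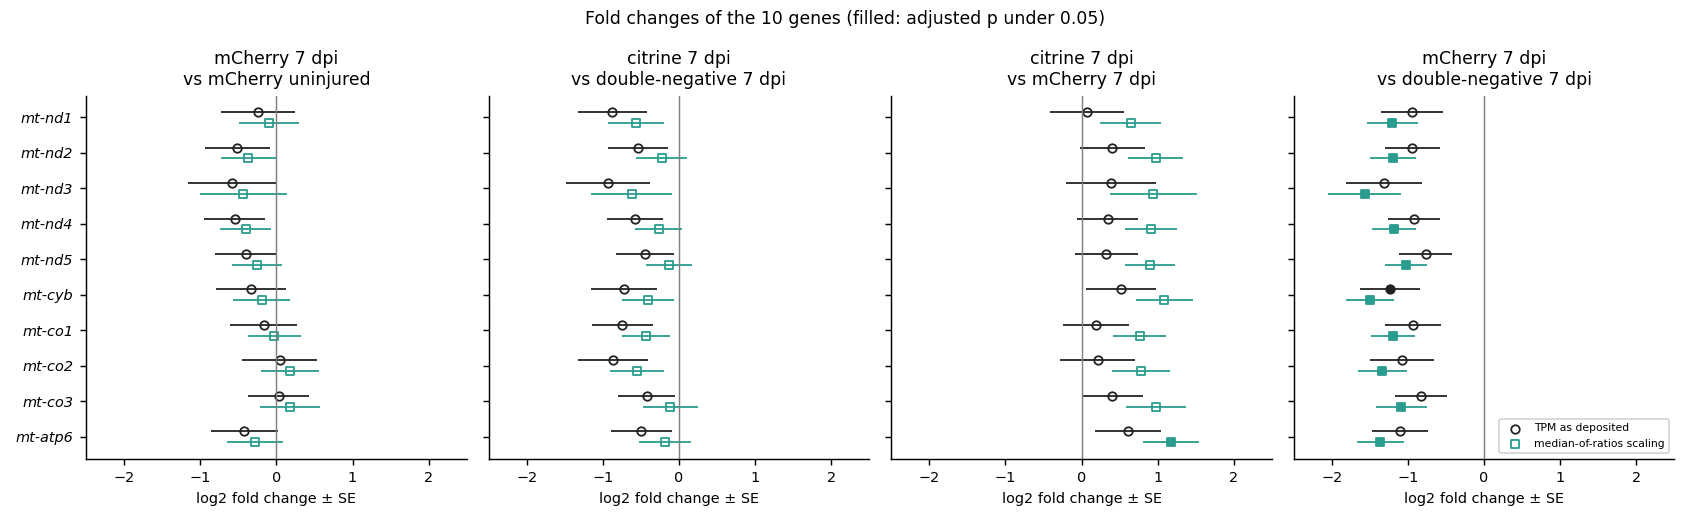
Log2 fold changes (± SE) of the 10 genes in each of the 4 comparisons, from TPM as deposited (circles) and after median-of-ratios scaling (squares), with filled symbols for an adjusted p under 0.05. Between mCherry-positive and double-negative cells 1 of 10 is called as deposited and 10 of 10 after rescaling, and in the other 3 comparisons the only call is mt-atp6 in citrine-positive against mCherry-positive cells after rescaling.

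How many of the 10 were called depended on the scaling. Median-of-ratios size factors set the typical transcript equal across libraries instead of the total, judged by the 9173 IDs above 0 in all libraries and not by all tested IDs. With this scaling 10 of 10 were called lower in mCherry-positive cells, with adjusted p from 0.00339 to 0.0377 (limma) and a median change of -1.20, where 13.3% of all IDs were called. The median of all IDs moved by the same scaling from -0.10 to -0.25, so the change of the 10 relative to it went from -0.95 against -0.10 to -1.20 against -0.25. With the pool number as a block, 0 of 10 were called, and as many in the same libraries without the block.

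The labels give each library a pool number, but do not spell out that equal numbers mean shared hearts, and for these sorts same-numbered libraries did not deviate together throughout. Set side by side by number, the summed level in mCherry-positive cells was 0.747 of that in double-negative cells of pool 5, 0.375 of it in pool 6, 0.308 in pool 7 and 0.679 in pool 9. In pools 6, 7 and 9 all 10 genes were lower in mCherry-positive cells, and in pool 5 this held for 8 of 10, mt-nd1 and mt-nd5 being the exceptions. The ratio thus varied between numbers, but for none of the 4 did mCherry-positive cells have the higher sum.

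Markers of other cell types moved with this comparison. The summed level of 7 erythroid markers was between 2097 and 27076 TPM in double-negative and between 9.94 and 194.51 TPM in mCherry-positive libraries. That of 12 macrophage markers was between 932.29 and 1677 against 157.30 and 702.50 TPM. The sum of 9 cardiomyocyte markers was between 793.64 and 1994 against 259.62 and 753.48 TPM, with 6 of 8 tested markers lower in mCherry-positive cells. The ID TNNT2 ENSDARG00000100694 was at 0 in every library. The marker nppb went the other way. It had 590.16 of the 753.48 TPM in mCherry-positive pool 5 and 441.86 of the 600.67 TPM in pool 6. In double-negative libraries it had from 13.04 to 88.36 TPM. Of 18 tested genes of the dissociation stress list, which holds early response genes, 8 were higher and 1 was lower in mCherry-positive cells. The part of these differences in the levels of the 10 genes was not tested.

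**Figure D3:**
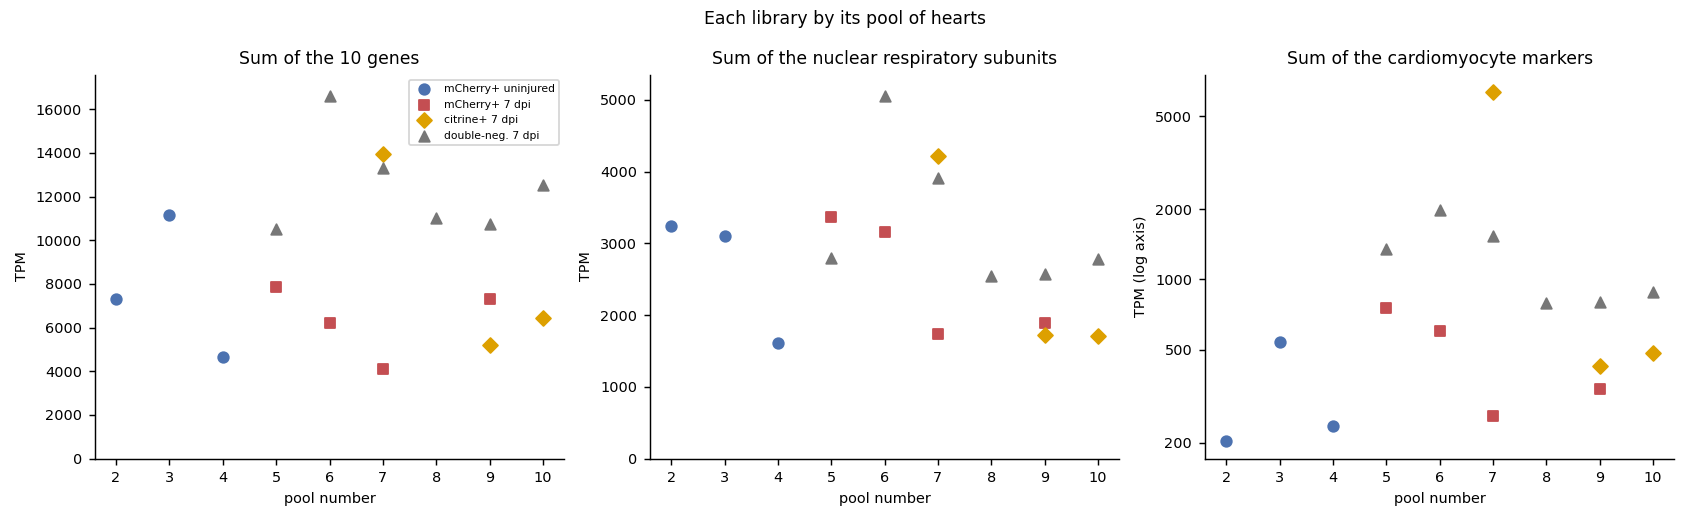
Summed TPM of the 10 mitochondrial genes, of the nuclear-encoded respiratory subunits and of the cardiomyocyte markers (log axis for the last) in each library, by pool number, where the symbol gives the sort. In pools 5, 6, 7 and 9 the square (mCherry-positive) lies below the triangle (double-negative) for the mitochondrial genes, and the diamond of pool 7 lies far above the other 2 citrine-positive libraries in all 3 panels, and above all other libraries for the cardiomyocyte markers.

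Citrine-positive cells fell into unequal libraries. Their summed level was 13948 TPM in pool 7, 5196 TPM in pool 9 and 6460 TPM in pool 10, so pool 7 had the second highest sum of all 16 libraries as deposited. The pair of IDs abundant in pools 9 and 10 took up 0% of pool 7, 35.8% of pool 9 and 26.0% of pool 10. With this pair left out of the total, the sums were 13948, 8098 and 8736 TPM. Double-negative pools 6, 9 and 10, at 16599, 15970 and 17427 TPM, then lay above citrine-positive pool 7. With median-of-ratios scaling, citrine-positive pool 7 instead had the highest sum of the 16 libraries, at 19678. The highest double-negative sum was then 14166, so the rank of this library depended on the scaling. The catalytic subunit mt-co1 had 2544 TPM in pool 7 against 1220 and 1511 TPM in pools 9 and 10, and mt-co3 had 2126 TPM against 660.46 and 783.82 TPM. For mt-atp6 the 3 values were 2219, 757.68 and 967.88 TPM, and for mt-cyb 1516, 560.38 and 703.42 TPM. Pool 7 was above both other citrine-positive libraries for 9 of 10 genes, whereas 26.9% of all tested IDs were. The exception was mt-nd3, at 67.81 TPM in pool 7 and 51.64 and 74.61 TPM in pools 9 and 10.

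The same library differed from the other 2 in its cell type markers. Cardiomyocyte markers summed to 6360 TPM in pool 7 and to 425.79 and 485.50 TPM in pools 9 and 10, with 8 of 9 higher. Fibroblast markers summed to 2944 TPM in pool 7 and to 6192 and 8783 TPM in the others, with 10 of 10 lower. Nuclear-encoded respiratory genes moved with the mitochondrial ones: 27 of 38 complex I subunits, 8 of 9 complex III, 13 of 17 complex IV and 12 of 14 ATP synthase subunits were highest in pool 7, and so were 24 of 28 glycolysis genes. Mitochondrial ribosome genes, which translate the 10 messengers, were higher in pool 7 for 20 of 73 (27.4%) and lower for 28 (38.4%). Over all tested IDs, the background for each count here, 26.9% were higher and 47.3% lower than in both others. The part of the cardiomyocyte markers in the high level of pool 7 was not tested.

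Against double-negative cells, 0 of 10 genes were called in citrine-positive cells (limma, adjusted p from 0.272 to 0.579) and 0 had an unadjusted p under 0.05, where 9.85% of all tested IDs were called. Of those 19039 IDs, 4099 had an unadjusted p under 0.05. All 10 log2 fold changes were negative, from -0.93 ± 0.55 for mt-nd3 and -0.87 ± 0.45 for mt-nd1 to -0.42 ± 0.37 for mt-co3. Their median was -0.65, against -0.23 over all tested IDs. The ranges overlapped for 10 of 10, whereas 16.6% of all IDs did not overlap. The pools differed: the summed level of citrine-positive cells was 1.05 times that of double-negative cells in pool 7, with 7 of 10 genes higher, but 0.484 times in pool 9 and 0.516 times in pool 10, with 10 of 10 lower in each. The main fit does not pair libraries by pool. With the pool number as a block on the shared pools, 0 were called, with a lowest adjusted p of 0.147 (limma). An unadjusted p under 0.05 was then found for 3 of 10, beside 3904 of all 16321 IDs tested in that fit. In the same libraries without the block it was found for 0 of 10, beside 3339 of 16321. Without citrine-positive pool 7 the median change was -1.01. Then 9 of 10 had an unadjusted p under 0.05, beside 3685 of 18838 tested IDs. The lowest adjusted p was 0.0729 (limma), so none was called then either. With pools 9 and 10 left out instead, the median was 0.11, and citrine-positive cells were then a single library, assumed to vary like the other groups. Of the markers, 12 of 12 macrophage and 6 of 7 erythroid ones were lower and 5 of 10 fibroblast ones higher in citrine-positive cells, and their part in the result was not tested.

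The comparison of both reporter sorts at 7 dpi gave 0 of 10 calls (limma, adjusted p from 0.429 to 0.957), where 11.9% of all IDs were called. An unadjusted p under 0.05 was found for 0 of 10, beside 4724 of all 19039 tested IDs. Fold changes of citrine-positive against mCherry-positive cells were positive for 10 of 10, from 0.074 ± 0.48 for mt-nd1 to 0.61 ± 0.44 for mt-atp6, with a median of 0.36 against -0.19 over all tested IDs. The ranges overlapped for 10 of 10, against 18% of IDs without overlap. The pools pointed in opposite directions. In pool 7 the summed level of mCherry-positive cells was 0.294 times that of citrine-positive cells, with 10 of 10 genes lower, and in pool 9 it was 1.40 times, with 10 of 10 higher. Without citrine-positive pool 7 the median change was -0.076. After median-of-ratios scaling the median was 0.93, with 1 gene called, mt-atp6 (log2 fold change 1.18 ± 0.37, adjusted p 0.0428, limma), where 13.2% of all IDs were called and their median was 0.13. Between these sorts 6 of 8 tested cardiomyocyte markers were higher and 1 was lower in citrine-positive cells, and 11 of 18 dissociation stress genes were lower and 1 higher, whose part was not tested.

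The injury comparison asked whether cryoinjury changed the endothelial sort. It gave 0 of 10 calls (limma, adjusted p from 0.649 to 1) and 0 with an unadjusted p under 0.05, where 0.693% of all IDs were called. Of all 19039 tested IDs, 2189 had an unadjusted p under 0.05. The fold changes of 7 dpi against uninjured mCherry-positive cells were negative for 8 of 10, the lowest being -0.58 ± 0.59 for mt-nd3, -0.54 ± 0.40 for mt-nd4 and -0.51 ± 0.43 for mt-nd2, and close to 0 for mt-co2, at 0.042 ± 0.49, and mt-co3, at 0.034 ± 0.40. The median was -0.37, against -0.06 over all tested IDs. Uninjured libraries differed among themselves by more than this: mt-co2 had 1090, 1689 and 518.19 TPM in uninjured pools 2, 3 and 4, mt-cyb had 728.32, 1368 and 410.42 TPM, and mt-nd4 had 563.50, 877.94 and 355.28 TPM. Pool 3 was the highest and pool 4 the lowest of the 3 in each. The ranges of uninjured and 7 dpi libraries overlapped for 10 of 10, against 6.92% of IDs without overlap, and leaving out uninjured pool 3 moved the median to 0.011.

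The proportions among the 10 transcripts, apart from that of mt-nd3, were steadier than their sum. Measured as a share of the sum of the 10, which removes anything that raises or lowers all together, mt-nd4 held 7.73%, 7.86% and 7.66% in the 3 uninjured libraries and 5.94%, 6.08%, 6.97% and 5.88% in mCherry-positive pools 5, 6, 7 and 9. For mt-nd2 the shares were 6.94%, 7.40% and 7.56% against 6.21%, 6.29%, 5.93% and 5.53%, and for mt-nd5 they were 5.59%, 6.05% and 6.11% against 5.14%, 5.51%, 5.13% and 5.19%. These 3 genes encode the antiporter-like subunits, which are known as proton pumps in the membrane arm of complex I. For all 3 the uninjured libraries lay above all 4 mCherry-positive ones of injured hearts, and also above all citrine-positive and all double-negative libraries.

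Together mt-nd2, mt-nd4 and mt-nd5 made up 20.3% to 21.3% of the sum in uninjured libraries, 16.6% to 18.0% in 7 dpi mCherry-positive, 17.1% to 18.2% in citrine-positive and 14.4% to 17.7% in double-negative libraries. The 3 genes were picked after these shares were seen and get no test. Of all tested IDs, 6.04% had a ratio to the sum of the 10 that did not overlap between uninjured and 7 dpi mCherry-positive libraries. At 7 dpi 2.12% were lower, beside 3 of 10 here. The 10 are parts of that sum and other IDs are not, so these rates are not alike and cannot be weighed against each other. With 3 against 4 libraries an exact two-sided permutation test cannot give a p below 0.0571. Uninjured hearts are the only source of pools 2, 3 and 4, so injury and pool cannot be told apart.

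Complex IV held a larger share in mCherry-positive cells at 7 dpi than in uninjured ones. The shares of mt-co1, mt-co2 and mt-co3 together were 45.0% to 49.0% in uninjured and 51.1% to 54.5% in 7 dpi mCherry-positive libraries, again without overlap. How often sums of other genes stand apart in this way was not counted, and the difference gets no test. Citrine-positive libraries, at 48.6% to 51.1%, overlapped the uninjured range. Double-negative libraries, at 49.9% to 53.2%, lay above the uninjured range and overlapped the 7 dpi mCherry-positive one. Between uninjured and 7 dpi mCherry-positive libraries none of the 3 genes was separate on its own: the share of mt-co2 was 14.9%, 15.1% and 11.2% against 20.6%, 16.6%, 13.6% and 15.5%. Shares of a fixed sum are tied, so a rise in 1 group of genes and a fall in another are not separate facts. The share of mt-cyb ranged from 8.84% to 12.2% in uninjured and from 8.56% to 10.2% in 7 dpi mCherry-positive libraries, and that of mt-atp6 from 13.9% to 14.5% against 10.3% to 13.9%, so both overlapped. In the same comparison the fold changes of 12 of 12 macrophage markers were positive (median 1.16 on the log2 scale, 1 called by limma). Those of the dissociation stress genes had a median of -1.07, with 0 of 18 called. An unadjusted p under 0.05 was found for 7 of these 18, beside 2189 of all 19039 tested IDs. The part of the macrophage markers and stress genes in the shares was not tested.

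**Figure D4:**
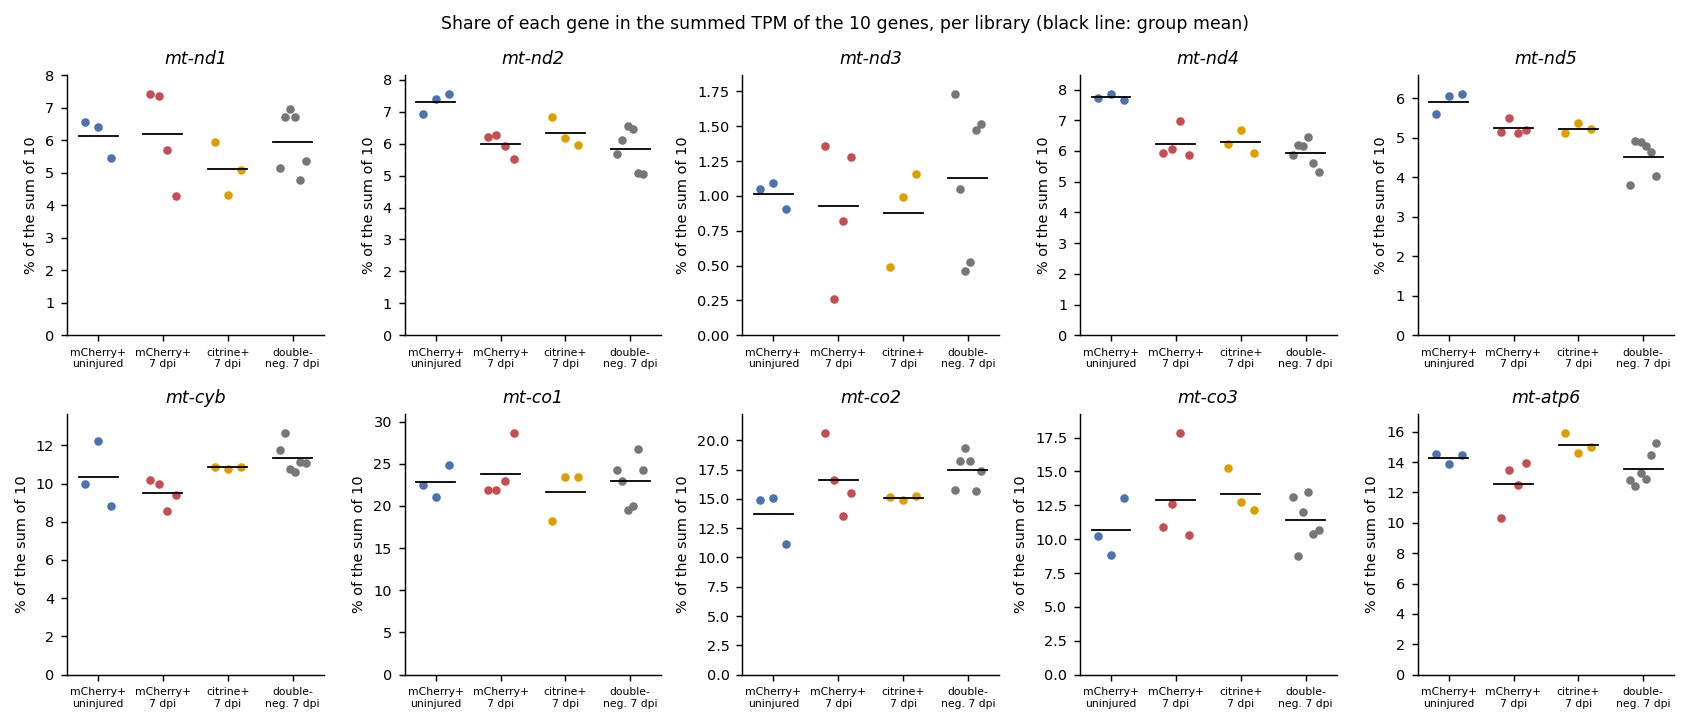
Share of each gene in the summed TPM of the 10 genes, in percent, for each library by group, where a point is a library and the black line is the group mean. For mt-nd2, mt-nd4 and mt-nd5 the 3 uninjured points lie above all 13 points of injured hearts, and mt-nd3 varies most relative to its own level.

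Between the sorts of injured hearts fewer shares stood apart. The share of mt-nd5 was 5.13% to 5.51% in mCherry-positive, 5.11% to 5.37% in citrine-positive and 3.80% to 4.92% in double-negative libraries, so both reporter sorts lay above the mixed sort. That of mt-cyb was 8.56% to 10.2% in mCherry-positive cells, below the 10.8% to 10.9% of citrine-positive and the 10.6% to 12.6% of double-negative cells. These are 2 of 10 genes apart between mCherry-positive and double-negative cells, where 22.9% of all IDs had a ratio to the sum of the 10 without overlap. Citrine-positive cells differed from mCherry-positive ones without overlap in mt-cyb and mt-atp6, 2 of 10 beside 16.9% of IDs, and from double-negative ones in mt-nd5 and mt-co2, 2 of 10 beside 14.4%. Here too the 10 are parts of the sum and other IDs are not, so the rates are not alike. The citrine-positive library of pool 7, which stood apart in level, had 10.9% for mt-cyb, within the narrow range of its group, but differed in other shares. It had 18.2% for mt-co1, the lowest of all 16 libraries, against 23.5% and 23.4% in pools 9 and 10, 15.2% for mt-co3 against 12.71% and 12.13%, and 0.49% for mt-nd3 against 0.99% and 1.15%.

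The transcript mt-nd3, a small complex I subunit, varied more than the other 9. It had 76.41, 121.82 and 41.88 TPM in uninjured pools 2, 3 and 4 and 106.81, 16.39, 33.63 and 93.02 TPM in mCherry-positive pools 5, 6, 7 and 9. Its level was 182.39, 174.41, 61.82, 57.63, 158.27 and 189.73 TPM in double-negative pools 5 to 10. In pools 7 and 8 the level lay well below that of the other 4, and the group reached down into the mCherry-positive range. Its highest value of the 16 libraries was 11.6 times its lowest, against 3.52 to 5.98 times for the other 9, and its share of the sum ran from 0.26% to 1.73%. The change between mCherry-positive and double-negative cells was -1.32 ± 0.50 on the log2 scale (adjusted p 0.104, limma), numerically the largest of the 10 and with the largest error.

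As a description over the 16 libraries, which share sorts, pools and amplification, the 36 pairs among the other 9 genes had a Pearson r of log2(TPM + 1) between 0.80 and 0.99, with a median of 0.93. The 9 pairs with mt-nd3 had r between 0.42 and 0.76. These 9 messengers thus rose and fell nearly as a unit from library to library, and mt-nd3 followed less closely. Outside the list, mt-atp8 also followed less closely, with r from 0.57 for mt-co3 to 0.86 for mt-co1 among the 9, and its r with mt-nd3 was 0.89.

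The nuclear-encoded partners were read from lists of subunits for each complex. Between mCherry-positive and double-negative cells 2 of 38 complex I subunits were lower and 0 higher (limma, adjusted p under 0.05), and 5 of 38 changes were positive, where 10.9% of all IDs were called. The 2 were ndufa11, at -2.07 ± 0.56 (adjusted p 0.0202), and NDUFA6, at -2.26 ± 0.67 (adjusted p 0.0363). In complex III 1 of 9 was lower, the Rieske iron-sulfur subunit UQCRFS1, which works beside cytochrome b, at -2.01 ± 0.46 (adjusted p 0.00725, limma). In complex IV 2 of 17 were lower, cox5aa at -2.96 ± 0.56 (adjusted p 0.00192, limma) and cox4i1l at -2.68 ± 0.78 (adjusted p 0.0313), with a median of -0.95. By the same test 0 of 14 nuclear ATP synthase subunits were called (median -0.67, 3 with an unadjusted p under 0.05), 0 of 15 tricarboxylic acid cycle genes (3), 0 of 25 genes of mitochondrial DNA and RNA upkeep (4) and 0 of 4 complex II subunits, 1 cytochrome c gene and 11 regulators (0 each). Of all 19039 tested IDs, 4489 had an unadjusted p under 0.05 in this comparison. Of 70 mitochondrial ribosome genes 2 were lower, mrps18b at -1.82 ± 0.55 (adjusted p 0.0392, limma) and MRPL15 at -2.25 ± 0.69 (adjusted p 0.0423).

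In the other comparisons few partners were called: 2 of 204 genes of the mitochondrial lists in citrine-positive against double-negative cells, where 9.85% of all IDs were called, and 5 of 204 against mCherry-positive cells, where 11.9% were. The shares of the lists lie below these backgrounds, and the genes called are named only as members of them. In citrine-positive cells the complex I subunit NDUFB2 was lower against double-negative cells, at -2.73 ± 0.51 (adjusted p 0.00135, limma), and against mCherry-positive cells, at -2.75 ± 0.55 (adjusted p 0.00200, limma), comparisons that share the citrine-positive libraries. It was 1 of 38 in each. COX7C of complex IV was lower against double-negative cells, at -2.27 ± 0.61 (adjusted p 0.0203, limma), and COX4I2, an alternative form of a regulatory complex IV subunit, was higher against mCherry-positive cells, at 2.42 ± 0.73 (adjusted p 0.0360, limma), each 1 of 17. ESRRA, a nuclear receptor that switches on respiratory genes, was lower against mCherry-positive cells, at -2.21 ± 0.56 (adjusted p 0.0119, limma), 1 of 11 tested regulators. Against mCherry-positive cells the mitochondrial ribosome genes mrpl34, at 2.56 ± 0.72 (adjusted p 0.0241, limma), and MRPL28, at 1.84 ± 0.55 (adjusted p 0.0327), were higher, 2 of 70. After injury, in mCherry-positive cells, 0 of the 204 tested genes of these mitochondrial lists were called by limma. An unadjusted p under 0.05 was found for 20 of the 204, beside 2189 of all 19039 tested IDs. Between mCherry-positive and double-negative cells these lists gave 0 higher and 7 lower of 204, below the 10.9% of all IDs.

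Glycolysis, the route to ATP that needs no mitochondrion, was read from 27 tested genes. In mCherry-positive against double-negative cells, PFKL rose by 1.12 ± 0.32 on the log2 scale (adjusted p 0.0274, limma), whereas GAPDH (ENSDARG00000043457), at -2.76 ± 0.54 (adjusted p 0.00235), and ALDOA (ENSDARG00000034470), at -2.97 ± 0.59 (adjusted p 0.00280), were lower, 1 higher and 2 lower of 27, close to the 10.9% called over all IDs. In citrine-positive against double-negative cells 0 were higher and 4 lower of 27, beside 9.85% of all IDs, among them HK2, which traps glucose in the cell, at -3.37 ± 0.83 (adjusted p 0.0116, limma). Against mCherry-positive cells 2 were higher and 5 lower of 27, beside 11.9% of all IDs.

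**Figure D5:**
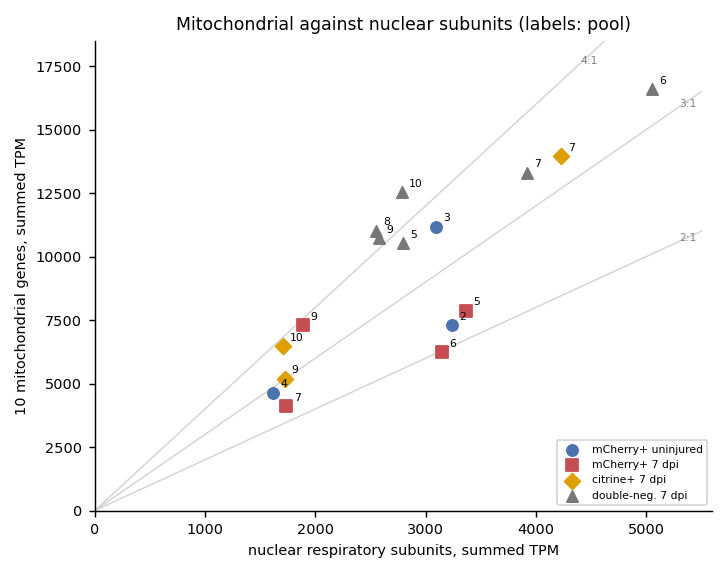
Summed TPM of the 10 mitochondrial genes against the summed TPM of the nuclear-encoded respiratory subunits in each library, labelled by pool, with grey lines for ratios of 2, 3 and 4. In pools 5, 6, 7 and 9 mCherry-positive libraries have a lower ratio than the double-negative library of the same number.

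The sum of the 10 genes divided by that of the nuclear subunits is unaffected by the scaling of a library. This ratio was 2.25, 3.61 and 2.88 in uninjured pools 2, 3 and 4 and 2.33, 1.98, 2.36 and 3.86 in mCherry-positive pools 5, 6, 7 and 9. It was 3.30, 3.02 and 3.78 in citrine-positive pools 7, 9 and 10, and 3.76, 3.29, 3.40, 4.32, 4.16 and 4.50 in double-negative pools 5 to 10. In each of the 4 shared pools the ratio was lower in mCherry-positive than in double-negative cells, by little in pool 9. The citrine-positive library of pool 7, highest in both sums of its group, had an intermediate ratio.

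Likeness was ranked over the 3573 IDs whose mean reached 20 TPM. The named genes whose pattern over the 16 libraries was most like the mean log2 level of the 10 were ATP5F1C, the rotating shaft subunit of the ATP synthase (Pearson r 0.84), SLC20A1, a phosphate transporter (0.82), tspo, an outer mitochondrial membrane protein (0.82), gpx1a, a glutathione peroxidase (0.82), and adprhl1 (0.80). ATP5F1C, which is nuclear-encoded, had 44.0 ± 32.7 TPM in uninjured, 30.3 ± 22.5 TPM in 7 dpi mCherry-positive, 48.4 ± 42.6 TPM in citrine-positive and 46.5 ± 18.5 TPM in double-negative libraries. Its r was 0.92 once group means were removed, whereas those of SLC20A1, tspo and gpx1a fell to between 0.61 and 0.64. The lowest r were those of pcdh2g28 (-0.69), GDPD5 (-0.65) and PLOD3 (-0.64), and 2 IDs with no symbol ranked among the highest.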

How the data were processed

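The 16 libraries were read from 1 deposited table of TPM per gene ID, its columns matched to samples by name. No unit stands in the file, but each column sums to 1000000 within rounding. The submitters' processing notes name CASAVA 1.8.2, the adapter trimmer cutadapt, the estimator RSEM 1.2.25 and the genome build Zv9. The annotation release is not given in the sources used here, so no coordinates and no sequence are shown. Reads of similar transcripts are divided by estimate.

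The main test was limma 3.58.1 (R 4.3.3) with trend and log2(TPM + 1), 1 mean per group and all 16 libraries, two-sided. It ran over the 19039 IDs that reached 1 TPM in 3 or more libraries. Calls used a Benjamini-Hochberg adjusted p below 0.05 over those IDs. Adding 1 shrinks the fold changes of low genes. The code was tested on simulated data. Summaries and plots used Python 3.11.15, numpy 2.4.6, pandas 2.3.3 and matplotlib 3.10.9. The p-values measure the spread between libraries within groups. The main fit treats libraries of different sorts as independent, also where they carry the same pool number.

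The members and the gene lists were chosen with earlier results of these data known. The 19 lists hold 364 entries, of which 93 were found under the same symbol, 181 with other capitals, 41 without the paralog letter, and 49 were not found. NDUFA4 was counted with complex I. Genes named are the 10, the other mitochondrially encoded subunits, up to 3 called genes of lowest adjusted p per list, the genes most and least like the 10, the reporter genes and the pair of IDs abundant in pools 9 and 10.

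Pool numbers come from the labels. Same-numbered citrine-positive and double-negative libraries deviated together (r from 0.163 to 0.227 in 3 pairs). They were treated as paired only in the fit with the pool as a block, and not in the main fit. Pairs of these sorts with different numbers had r from -0.280 to 0.167, so the ranges overlapped slightly. Alternatives were other scalings, pseudocounts and filters, a fit on the compared groups alone, the pool as a block, and leaving out each library or pools 9 and 10.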

Additional observations from a re-analysis of the deposited data

Results flagged for a closer look

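In 42 sets of values, 3 samples stood apart from the rest of their group, about as many as chance gives at 1 in 20 of independent sets. These sets are not independent, because the genes rise and fall together. All came from the 7 dpi mCherry-positive and double-negative groups. The uninjured and citrine-positive groups, with 3 libraries each, were too small for the rule, so citrine-positive pool 7 was not examined. Cytochrome b, mt-cyb, had 2098 TPM in double-negative pool 6, where the other 5 libraries had between 1166 and 1431 TPM. In the 7 dpi mCherry-positive group, the share of mt-co1 in the sum of the 10 genes was 28.6% in pool 9, where the other 3 libraries had between 21.9% and 23.0%. In the same group, the share of mt-nd5 was 5.51% in pool 6, where the others had between 5.13% and 5.19%.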

How the results depend on the processing

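Of the fold changes of the 10 genes recomputed under each alternative, 694 kept their direction and side of the threshold, 29 changed sign, 12 passed the threshold newly and 15 no longer passed it. The cause of the changes was not tested. For mCherry-positive against double-negative cells at 7 dpi, 1 gene was called as deposited, 10 with median-of-ratios scaling, 2 with a filter at 5 TPM, 0 with a pseudocount of 5, 0 without a filter, 0 without pools 9 and 10, 0 with the replicate block on shared pools and 0 in those libraries without the block, and 0 to 1 when each library was left out. Every fold change stayed negative there. For citrine-positive against mCherry-positive cells, median-of-ratios scaling gave 1 call and a median of 0.93, and the median was 1.22 without pools 9 and 10. Without these pools citrine-positive cells were the single library of pool 7, here and in the next comparison. For citrine-positive against double-negative cells without pools 9 and 10 the median was 0.11, with mt-nd1 at 0.049, mt-nd2 at 0.28, mt-atp6 at 0.45, mt-co3 at 0.52, mt-nd4 at 0.15, mt-nd5 at 0.30 and mt-cyb at 0.071. After injury mt-co2 was at -0.011 without these pools.

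Leaving out each library in turn moved the median from -0.71 to 0.011 after injury, with mt-nd1 from -0.64 to 0.11, mt-co1 from -0.42 to 0.092, mt-co2 from -0.42 to 0.43, mt-co3 from -0.13 to 0.22 and mt-cyb from -0.76 to 0.11. For citrine-positive against mCherry-positive cells it moved the median from -0.076 to 0.59, with mt-nd1 from -0.46 to 0.48, mt-nd2 from -0.073 to 0.71, mt-co1 from -0.11 to 0.42, mt-co2 from -0.21 to 0.51, mt-co3 from -0.12 to 0.73, mt-nd3 from -0.12 to 0.76, mt-nd4 from -0.073 to 0.59 and mt-nd5 from -0.080 to 0.60.

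With the pool as a replicate block none of the 10 was called (limma). The median was -0.61 for citrine-positive against double-negative cells and 0.68 for citrine-positive against mCherry-positive cells. For mCherry-positive against double-negative cells it was -0.99. In the same order, an unadjusted p under 0.05 was found for 3, 0 and 5 of the 10. The counts over all tested IDs were 3904 of 16321, 1999 of 12041 and 3718 of 16641. In the last 2 comparisons the libraries are taken to share only a number, a choice that the values do not settle. There r ranged from 0.065 to 0.181 in 2 pairs and from 0.018 to 0.368 in 4. Pairs with different numbers had r from -0.261 to 0.177 and from -0.281 to 0.363. Among the libraries of shared numbers alone, 4 of 4 and 3 of 8 correlated best with their own number. With all numbers allowed, citrine-positive pool 7 had a higher r with mCherry-positive pool 5 (0.094) than with mCherry-positive pool 7 (0.065). Over all IDs the block gave 613 calls in place of 190 for citrine-positive against mCherry-positive cells. No paired analysis was possible after injury because those groups share no pool. Depth is unknown, so its part in the spread was not tested.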
